A study of Mus musculus with 12 samples.

Results

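Open chromatin was mapped by ATAC-seq. In this assay the Tn5 transposase cuts accessible DNA and leaves adapters for sequencing, so that an open site collects reads. The cells were primary fibroblasts of wild-type C57BL/6N mouse embryos at E13.5 (MEFs), and all libraries received a lentivirus for rtTA, the transactivator that switches on tetO transgenes in doxycycline (2 µg/ml), and were collected on day 2. The 4in1_GFP_OE group also received the 4in1 vector (LV.4TF) and tetO-GFP, and the 4in1_Prox1_OE group received 4in1 and FLAG-tagged mouse Prox1, while MEF (rtTA alone) and Prox1_OE (rtTA and Prox1) are the remaining groups of 3 libraries each. No list of the factors that 4in1 encodes was used here, transduced cultures can mix cells with and without each virus, and the labels do not say whether replicates came from separate embryo preparations.

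The windows described here were chosen by their own values in the deposited table of the 4in1 comparison. A window was taken if its log2 mean of normalised reads was at least 5.5 in 4in1_GFP_OE (the GFP arm) and at least 7 in 4in1_Prox1_OE (the Prox1 arm), if the Prox1 arm exceeded the GFP arm by at least 1, and if it lay more than 1 kb from every GENCODE M21 transcription start site (mm10). This gave 1757 members among 149147 such distal windows (1.18%) and 176680 windows in all. The values in each arm are means over 3 libraries without a spread, so no error can be given for a window, and the levels and differences below describe the choice and test nothing.

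Distal accessible windows are often enhancers or insulators. Enhancers are short stretches of DNA where transcription factors displace nucleosomes and from which they act on promoters at a distance, and insulators are often held by CTCF, a zinc finger protein that organises chromatin loops. PROX1 is a homeodomain factor of hepatocytes and lymphatic endothelium, known for acting with corepressors in liver cells. In fibroblasts, many open distal sites carry AP-1 or TEAD motifs, whose factors respond to growth factor and mechanical signals.

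The members carried reads without Prox1, but few of them were strongly open. Their median level in the GFP arm was 6.03 (range 5.501 to 7.72), or 65.4 normalised reads, which was above only 23.7% of all distal windows. Only 81 members (4.61%) exceeded the distal median of 6.81. With Prox1 their median level was 7.37 (7.001 to 8.74), or 166 normalised reads, above 84.6% of distal windows. The term open therefore fits them by the lower limit alone, which 12.2% of distal windows did not reach, and they are described here as weakly accessible distal windows that were higher with Prox1.

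The window with the largest difference lay in intergenic DNA on chr19:36782701-36782901 (mm10), 35.7 kb from the nearest start site. It had a level of 5.73 in the GFP arm and of 8.34 in the Prox1 arm, a difference of 2.62. The second largest difference (2.48), near Pura, is not shown as sequence. The third window lay in an intron of Col19a1, a collagen gene, at chr1:24471206-24471406, with levels of 5.53 and 7.999. The fourth covered an exon of Cars, the cysteinyl-tRNA synthetase gene, at chr7:143557338-143557538, with levels of 5.65 and 8.01. These sequences are shown because members differed from other distal windows in one short word, AAG, which reads CTT on the other strand and is in capitals here.

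Member on chromosome 19: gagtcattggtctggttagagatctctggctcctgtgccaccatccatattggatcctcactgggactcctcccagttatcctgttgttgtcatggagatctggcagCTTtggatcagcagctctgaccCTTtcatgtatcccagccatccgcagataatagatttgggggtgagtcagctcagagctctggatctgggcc
Member in Col19a1: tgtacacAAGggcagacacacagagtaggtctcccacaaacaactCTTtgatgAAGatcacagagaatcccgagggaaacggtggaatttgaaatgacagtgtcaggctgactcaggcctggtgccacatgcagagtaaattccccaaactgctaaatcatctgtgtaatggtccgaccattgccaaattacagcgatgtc
Member in Cars: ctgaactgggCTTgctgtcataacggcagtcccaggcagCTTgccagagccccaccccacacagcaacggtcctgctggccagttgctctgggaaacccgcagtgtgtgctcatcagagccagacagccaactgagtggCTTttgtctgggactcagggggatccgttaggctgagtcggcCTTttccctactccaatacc

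They hold 2, 3 and 4 copies of the word. For contrast, the distal windows with the lowest differences at a GFP level of 5.5 to 6.5 are shown. A window in an intron of Dlg2, which encodes a synaptic scaffold, lay at chr7:92286216-92286416 and went from 6.15 to 3.82. A window in an intron of Rbms3, which encodes an RNA-binding protein, lay at chr9:117143857-117144057 and went from 5.94 to 3.62. An intergenic window at chr8:44536060-44536260 went from 6.45 to 4.14.

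Lower window in Dlg2: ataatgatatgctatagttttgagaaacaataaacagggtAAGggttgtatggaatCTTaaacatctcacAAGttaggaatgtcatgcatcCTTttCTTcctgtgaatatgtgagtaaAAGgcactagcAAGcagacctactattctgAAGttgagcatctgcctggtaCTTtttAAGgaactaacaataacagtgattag
Lower window in Rbms3: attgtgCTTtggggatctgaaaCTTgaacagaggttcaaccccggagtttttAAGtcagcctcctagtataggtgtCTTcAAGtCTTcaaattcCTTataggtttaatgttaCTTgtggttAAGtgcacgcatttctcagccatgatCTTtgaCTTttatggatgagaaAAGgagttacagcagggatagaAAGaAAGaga
Lower window on chromosome 8: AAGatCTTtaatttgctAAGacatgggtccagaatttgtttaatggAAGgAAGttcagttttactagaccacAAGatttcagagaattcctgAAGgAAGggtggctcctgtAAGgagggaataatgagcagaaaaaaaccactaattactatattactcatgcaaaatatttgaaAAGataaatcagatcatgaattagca

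These windows hold 10, 14 and 10 copies of the word. All sequences were read on the plus strand of GRCm38, the assembly that UCSC calls mm10.

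Over all members, the differences had a median of 1.30 (largest 2.62), or 2.45-fold in normalised reads. A difference of at least 1.5 was reached by 476 members and one of at least 2 by 47. Most members thus lay close to the rule's limit, and the largest differences were found at the lowest GFP levels. In the quartile of members with the smallest differences the median GFP level was 6.26, and in that with the largest it was 5.76.

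**Figure D1:**
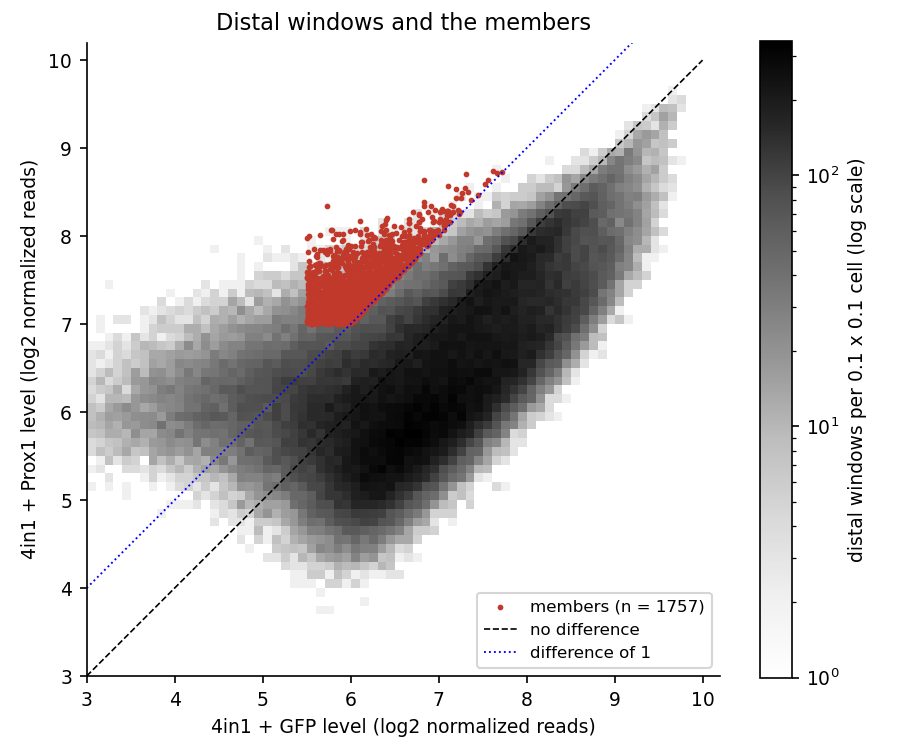
Levels of all distal windows (grey, number per cell on a log scale) and of the 1757 members (red) in the GFP arm (x axis) and the Prox1 arm (y axis), both as log2 mean normalised reads over 3 libraries. The dashed line marks no difference and the dotted line a difference of 1, and the members fill the corner that the rule sets, from a GFP level of 5.501 to 7.72.

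In the whole table, 8.33% of windows were higher by at least 1 with Prox1 and 24.4% were lower by at least 1. For distal windows these shares were 9.15% and 27.0%. Among the 37388 distal windows that reached both level limits, 4.70% were higher by at least 1, and these are the members. The median difference of all windows was -0.42. Subtracting it changed the split of distal windows past 1 from 25.3% higher to 59.9% higher, and 3744 windows then passed the rule.

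Values just inside and outside each limit were nearly the same. At the GFP limit, a window near Pura was included at a level of 5.501, and the first window left out, near Gm48759, had 5.498, with differences of 2.48 and 1.98. At the Prox1 limit, a window in Parva was included at 7.001 and one in Prkd1 was left out at 6.9998. At the limit of the difference, a window in Dtx1 was included at 1.0005 and one in Sgsm1 was left out at 0.99988. Below the GFP limit, 901 distal windows passed every other condition, with a median GFP level of 5.04 and a median difference of 2.24.

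Of the 5 members with the highest Prox1 levels, 3 had differences close to the limit. A window in an intron of Gse1, which encodes a subunit of a histone deacetylase complex, had levels of 7.62 and 8.74 at chr8:120518753-120518953. An intergenic window 11.2 kb from a start site of Ets2, an ETS transcription factor gene, had the highest GFP level, 7.72, and a Prox1 level of 8.72. A window in Cnnm2, a gene of magnesium transport, had levels of 7.67 and 8.71. An intergenic window near Lsm4, an RNA processing gene, combined a high Prox1 level of 8.64 with a difference of 1.81, from a GFP level of 6.83. Its window and that of Gse1 held no AAG.

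The remaining members with large differences lay in introns or between genes. A window in Gdf11, a TGF-beta family ligand gene, went from 5.78 to 8.07. A window in Sgk2, a kinase gene, went from 5.83 to 8.03. A window in Tbc1d22a, a gene for a Rab GTPase-activating protein, went from 5.79 to 8.07. An intergenic window 22.4 kb from a start site of Csf3r, the receptor gene of granulocyte colony-stimulating factor, went from 5.52 to 7.82. Among the 10 members with the largest differences the AAG count ran from 0 to 5.

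The count of AAG was the clearest sequence difference between members and other distal windows. This word was picked after the sequence values had been seen, as the triplet furthest from equal among the 32 that remain when the strands are merged. Members held a mean of 4.49 copies per window and other distal windows 7.50, a ratio of 0.598. The next lowest ratios belonged to GAA (0.723) and AGA (0.725), which overlap with it. At the other end, CCC had a ratio of 1.29 and ATG of 1.23. In all, 1230 members (70.0%) held 5 copies or fewer, against 24.6% of other distal windows, and 34 members (1.94%) held 10 or more, against 22.9%.

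The same held against windows of matching GFP level. The 38675 other distal windows with a GFP level of 5.5 to 6.5 held a mean of 7.56 copies, and 23.6% of them held 5 or fewer. The 35631 other distal windows that reached both level limits held a mean of 6.72. Windows below the GFP limit that passed the other conditions resembled the members, with a mean of 4.41. Distal windows within 0.25 of no difference had a mean of 6.68, and those lower by at least 1 had 9.03.

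Across all distal windows the difference between the arms fell with the AAG count. Windows without AAG had a median difference of 0.83 (280 windows), those with 4 copies of 0.06, those with 7 of -0.48 and those with 12 or more of -1.10 (12030 windows). The share of windows that were members fell from 12.1% at 0 copies to 3.28% at 4 and 0.0416% at 12 or more. The Pearson correlation between count and difference over the 149147 distal windows was -0.39 (Spearman -0.45). It is given as a description, since all points share the same 6 libraries and windows are not replicates.

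**Figure D2:**
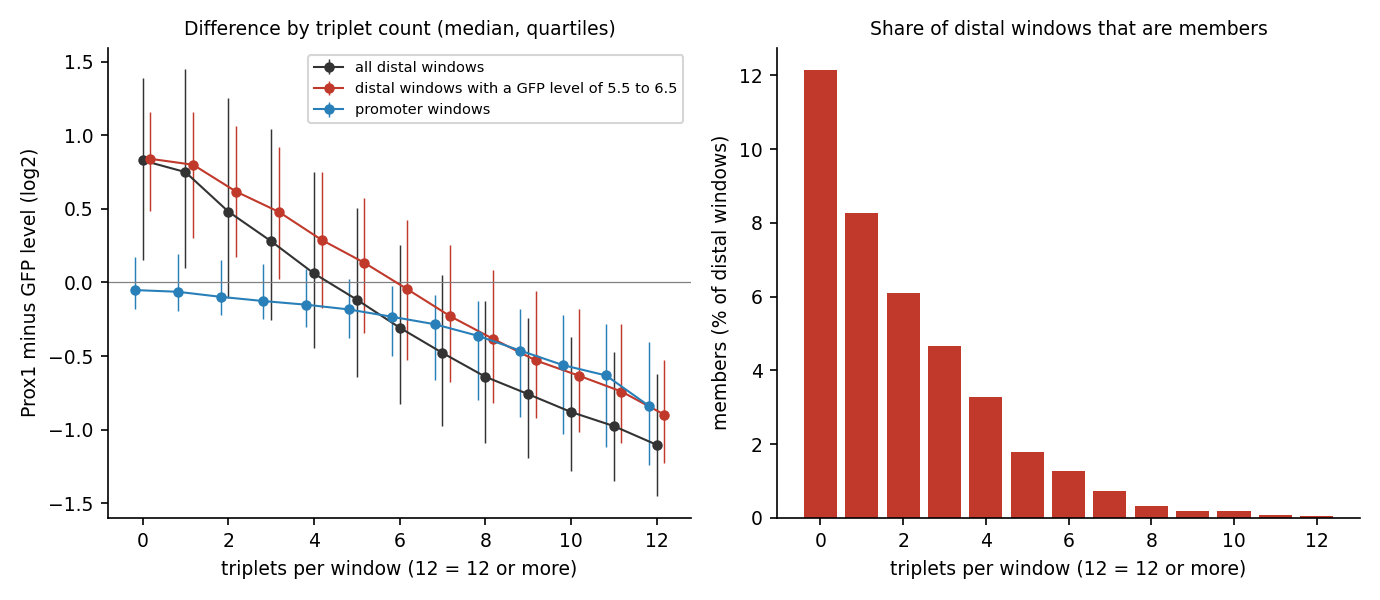
Left, median difference (Prox1 minus GFP level, log2) against the number of AAG or CTT triplets in a window, with bars for the quartiles, in all distal windows, in distal windows with a GFP level of 5.5 to 6.5 and in promoter windows. Right, percentage of distal windows at each count that are members. Medians fell from 0.83 to -1.10 in distal windows and from -0.05 to -0.84 in promoter windows.

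The order was also seen where level, base composition and position were held in narrower ranges. In distal windows with a GFP level of 5.5 to 6.5, the median difference went from 0.84 without AAG to -0.90 at 12 or more copies. Between windows with 3 or fewer and 10 or more copies, the gap in median difference was 1.38 over all distal windows. It was 1.75 in the GC quintile with the lowest GC content and 0.790 in the highest, so GC content moved with its size but not with its direction. It ran from 1.19 to 1.61 over the 19 autosomes and was 1.07 on chromosome X. Promoter windows, which lie within 1 kb of a start site and hold no member by the rule, had a gap of 0.581. All values are group means, and the part of tagmentation, amplification or base composition in this order was not tested.

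The scarcity of AAG in members was local to the window. At the centre, members held 1.94 and 1.90 copies per 100 bases in the 50-base bins on either side. Windows without a difference held 3.14 and 3.10 there, and windows lower by at least 1 held 4.49 and 4.51. From 400 to 1000 bases away, members held 3.95 to 4.14 copies per 100 bases, windows without a difference 4.10 to 4.21 and lower windows 4.21 to 4.31. The flanks of the 3 classes were thus close to each other, and the classes parted near the centre.

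**Figure D3:**
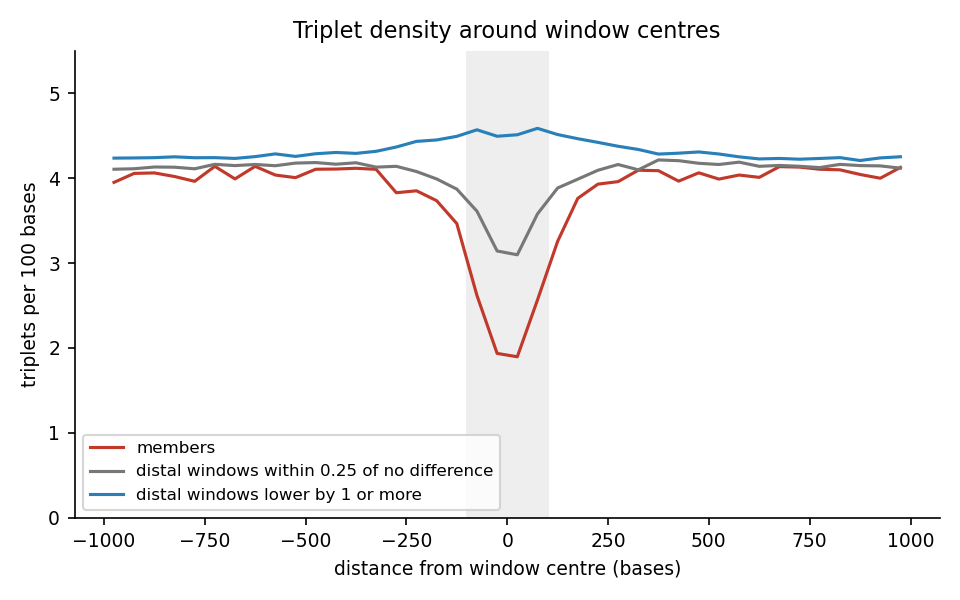
Density of AAG or CTT (copies per 100 bases, in bins of 50 bases) by distance from the window centre, for members, for distal windows within 0.25 of no difference and for distal windows lower by at least 1. The grey band marks the window itself, and the members' line dips to 1.90 at the centre from about 4 in the flanks.

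Longer words gave the same picture. Of the 2080 words of 6 bases, the 20 that were least frequent in members relative to other distal windows reaching both levels included 13 that contain AAG, and the 20 most frequent included none, while 12.3% of all such words contain it. AAGAAA was present in 5.12% of members and 15.4% of the comparison windows, AAGGAA in 7.001% and 17.1%, and AGGAAG in 12.9% and 22.9%. Words more frequent in members were CACATG (29.0% and 17.9%), ATGACA (23.4% and 13.3%), GTGACA (22.1% and 13.8%) and CTGGCA (29.5% and 21.7%).

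Among members, larger differences went with slightly fewer AAG. The quartile with the smallest differences (1.00 to 1.14) held a mean of 4.76 copies, and the quartile with the largest (1.52 to 2.62) held 4.07. The median GC content of the same quartiles was 49.8% and 51.2%. Over all members it was 50.2% (quartiles 45.3% and 55.7%), against 47.8% in other distal windows and 45.3% in distal windows lower by at least 1.

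Known binding motifs were then counted on both strands of each window, as 37 fixed spellings that are not the matrices of the study. Intervals are 95% Wilson intervals over windows and cover counting alone. Members held more E-boxes, the sites of basic helix-loop-helix factors such as TWIST1 and TCF12 and of the zinc finger factors SNAI2 and ZEB1. CAGGTG was found in 313 members, or 17.8% (16.1% to 19.7%), against 10.6% of other distal windows and 10.97% of all windows. Its share was 14.5% in distal windows without a difference and 5.57% in those lower by at least 1. CAGCTG was found in 394 members, or 22.4% (20.5% to 24.4%), against 16.0% of other distal windows and 15.9% of all windows. With other distal windows weighted to the members' GFP level and AAG count, the comparison shares were 13.9% for CAGGTG and 18.6% for CAGCTG, still below the members' intervals.

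The members in Tbc1d22a (chr15:86476546-86476746) and near Csf3r (chr4:126001938-126002138) are shown as the ones with the largest differences, among windows not already shown, that hold each E-box, which is in capitals.

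Member in Tbc1d22a, CAGGTG read on the other strand: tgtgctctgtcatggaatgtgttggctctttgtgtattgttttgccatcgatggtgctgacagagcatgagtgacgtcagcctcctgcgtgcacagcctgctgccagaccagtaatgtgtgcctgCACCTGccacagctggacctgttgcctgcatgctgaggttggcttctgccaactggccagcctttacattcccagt
Member near Csf3r, CAGCTG: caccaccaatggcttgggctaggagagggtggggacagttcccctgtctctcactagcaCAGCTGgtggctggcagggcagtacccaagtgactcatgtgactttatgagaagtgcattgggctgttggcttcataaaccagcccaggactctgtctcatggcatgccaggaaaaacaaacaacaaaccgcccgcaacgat

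Motifs of SP, KLF and NFI factors were also more frequent. The GC box GGGCGG, a site of SP1 and KLF proteins, was in 9.73% of members (8.43% to 11.2%), against 4.91% of other distal windows, although it was in 10.0% of all windows because promoters hold many. GGGTGTG, a KLF site, was in 9.16% of members and 5.53% of other distal windows. The long NFI motif, TTGGC and GCCAA with 5 bases between them and at most 1 mismatch, was in 51 members (2.90%) and 1.44% of other distal windows. Its short form TTGGCA was in 17.7% and 14.9%. NFI proteins are widely expressed factors that bind DNA as dimers.

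Motifs of hepatocyte factors were mixed. ATCAATA, a site of the cut homeodomain factors ONECUT1 and ONECUT2, was in 40 members, or 2.28% (1.68% to 3.09%), against 1.16% of other distal windows. TGTTTAC, a site of forkhead factors such as FOXA3, was in 64 members, or 3.64% (2.86% to 4.62%), against 2.80%. The GATA site AGATAA was in 6.72% of members and 7.29% of other distal windows, inside the interval of 5.64% to 7.98%. Its longer spelling AGATAAG was in 18 members, or 1.02% (0.649% to 1.61%), against 1.88% of other distal windows and 1.93% at the same GFP level and GC content. This spelling ends in AAG, and its share at the same GFP level and AAG count, 1.25%, lay inside the interval. The HNF4 site spelled CAAAG then TCCA was in 4 members, and the HNF1 site in 2. The share for each was below 0.25% in members and at most 0.325% in other distal windows, so neither spelling could separate the classes at these counts. The paired AGGTCA motif (1 base between, up to 2 mismatches), which HNF4 and other nuclear receptors bind, was in 29 members, or 1.65% (1.15% to 2.36%), against 0.973% of other distal windows.

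The member near Epha8 (chr4:136961960-136962160) had the largest difference among members with the ONECUT site that are not already shown, and went from 5.62 to 7.76. The member 17.7 kb from a start site of Dapk2 (chr9:66286031-66286231) had the largest difference among those with the short NFI motif that are not already shown, and went from 5.52 to 7.71.

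Member near Epha8, ONECUT site on the other strand: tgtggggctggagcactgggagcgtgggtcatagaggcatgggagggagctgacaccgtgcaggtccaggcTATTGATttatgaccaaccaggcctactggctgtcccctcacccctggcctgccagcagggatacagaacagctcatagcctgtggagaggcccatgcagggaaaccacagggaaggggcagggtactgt
Member near Dapk2, short NFI motif on the other strand: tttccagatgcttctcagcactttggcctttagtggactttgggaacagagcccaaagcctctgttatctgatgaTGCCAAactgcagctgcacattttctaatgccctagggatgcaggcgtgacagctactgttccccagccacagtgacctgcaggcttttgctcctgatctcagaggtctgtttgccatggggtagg

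The PROX1 motif was rare in all windows. Its palindromic consensus, with 1 mismatch allowed, was in 2 members, or 0.114% (0.0312% to 0.414%), 0.303% of other distal windows, which lies inside this interval, and 0.305% of all windows. The short word AAGACG from it was in 9 members, or 0.512% (0.270% to 0.971%), against 1.97% of other distal windows and 2.56% of those lower by at least 1. This word begins with AAG, the triplet that was scarce in members, and with windows weighted to the same GFP level and AAG count the comparison share was 1.17%.

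The comparison for AP-1, CTCF and TEAD motifs depended on which windows were used. AP-1 sites (TGACTCA or TGAGTCA) were in 428 members, or 24.4% (22.4% to 26.4%), against 25.3% of other distal windows. That class joins windows of opposite kinds, since 38.7% of the lower windows and 15.6% of the windows without a difference held the site. At the same GFP level and GC content, 17.1% of other distal windows held it, 7.29 percentage points below the members. CTCF motifs were in 86 members, or 4.89% (3.98% to 6.01%), against 9.63% of other distal windows and 22.2% of those without a difference. The share was 1.54% in lower windows, and 5.94% at the same GFP level and GC content. CATTCCA, the site of TEAD factors, was in 10.1% of members (8.75% to 11.6%) and 8.41% of other distal windows. Lower windows had a like share of 10.02%, inside that interval, and windows without a difference less often, at 6.86%.

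Of the 37 spellings, 21 had a share in other distal windows outside the members' interval. All 21 kept their direction against windows of the same GFP level and GC content, and 20 did at the same GFP level and AAG count. Direction is a weak measure, since some of these comparison shares came to lie inside the members' interval. At the same GFP level and GC content these were CTCF, CEBP and the homeodomain word TAATTA, and at the same GFP level and AAG count the longer GATA spelling, CEBP and SOX. The nuclear receptor word AGGTCA was in 17.0% of members and 14.4% of other distal windows, and the SOX word ACAATGG in 3.70% (2.91% to 4.69%) and 2.68%, with 3.23% at the same GFP level and AAG count. Below the other distal windows were the IRF motif, a pair of GAAA 2 bases apart (0.797% and 2.26%), the CEBP motif, TTGC and AA 2 bases apart (7.74% and 9.50%), and the homeodomain word TAATTA (2.22% and 3.13%, with 2.84% at the same GFP level and GC content and an interval of 1.63% to 3.02%). CEBP was the exception in direction, since 6.67% of windows at the same GFP level and AAG count held it, and at the same GFP level and GC content 8.17% did, inside the members' interval of 6.58% to 9.08%. The RUNX word TGTGGTT (7.74% and 6.97%) and the ETS word CCGGAA (2.56% and 2.63%) lay inside their intervals against all other distal windows. For RUNX the share at the same GFP level and GC content, 6.27%, was below its interval of 6.58% to 9.08%, and the AP-1, CArG (the serum response factor site) and broad forkhead spellings likewise had more in members there. At the same GFP level and AAG count this held for AP-1, CArG, the TCF/LEF word and the HNF4 spelling with 1 mismatch. The CArG spelling was in only 25 members. Members minus all other distal windows gave 0.24 points for it, and -1.58 points with 1 mismatch allowed.

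**Figure D4:**
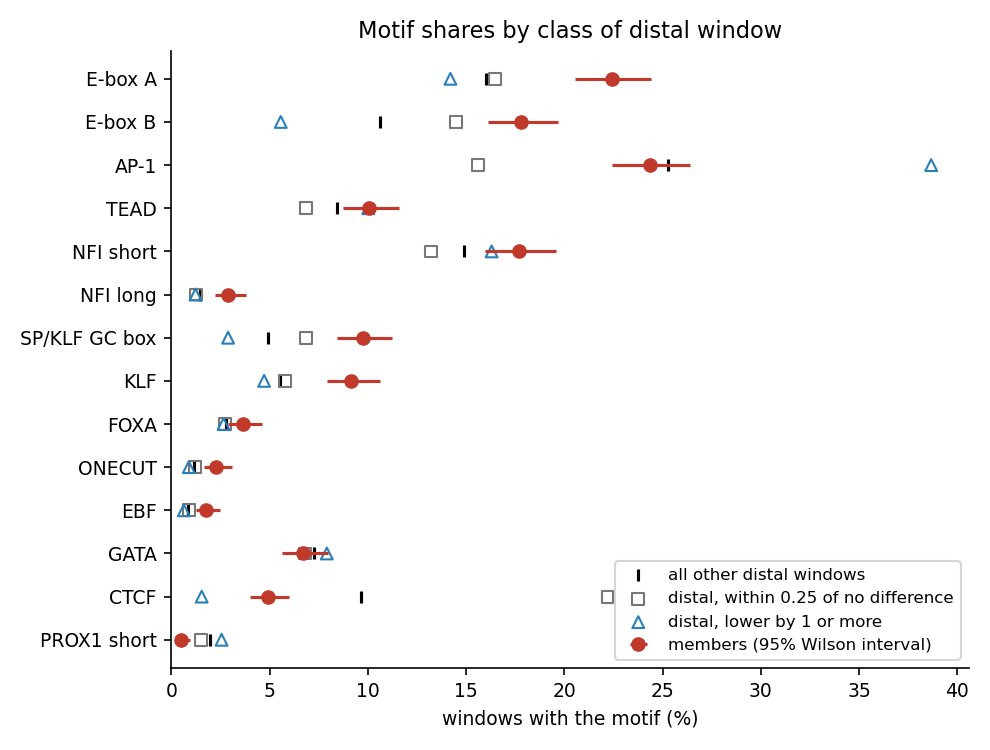
Percentage of windows that hold each motif, for members (red points with 95% Wilson intervals), all other distal windows (black bars), distal windows within 0.25 of no difference (grey squares) and distal windows lower by at least 1 (blue triangles). E-box A is CAGCTG and E-box B is CAGGTG, and both are higher in members (22.4% and 17.8%) than in the other classes plotted.

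An AP-1 site in capitals near the centre is seen in the member with the largest difference, among those not already shown, that holds this motif. It is at chr3:133563606-133563806, lies in an intron of Gm42567 and went from 5.58 to 7.85. The sequence around it is repeated within the window.

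Member in Gm42567, AP-1 site: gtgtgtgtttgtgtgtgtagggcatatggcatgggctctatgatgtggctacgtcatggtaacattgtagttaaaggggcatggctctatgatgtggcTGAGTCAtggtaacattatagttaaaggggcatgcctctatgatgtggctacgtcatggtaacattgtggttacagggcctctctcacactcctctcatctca

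Within the window, AP-1 and TEAD motifs gathered at the centre in members and in other distal windows alike. AP-1 sites lay in the bin just before the centre in 5.98% of members and in the outermost bins in 0.512% and 0.854%. In other distal windows these shares were 5.21%, 0.893% and 0.911%. TEAD sites reached 2.33% near the centre of members and 1.30% in other distal windows, from 0.341% and 0.482% at the first edge. The GC box in members went from 0.626% and 0.569% at the edges to 2.11% just past the centre, whereas in other distal windows it stayed between 0.426% and 0.666%. CAGGTG showed no such peak in members, with 1.37% to 2.45% in every bin. CTCF motifs in other distal windows reached 3.26% at the centre, and in members 1.42%.

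**Figure D5:**
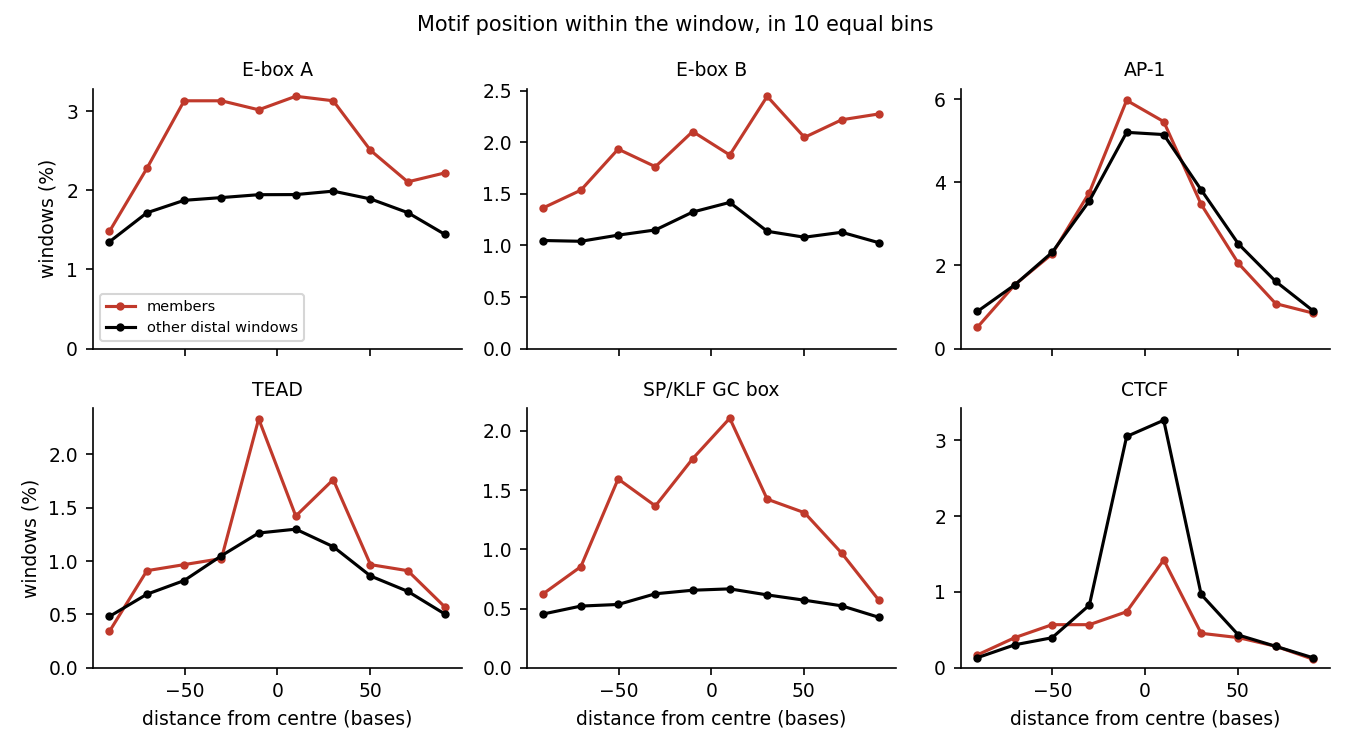
Percentage of windows with a motif in each of 10 equal bins (x axis, distance of the bin from the window centre) for members (red) and other distal windows (black), each panel with its own y axis from 0. AP-1 and TEAD peak at the centre in both classes, the GC box peaks there in members (2.11%), E-box B (CAGGTG) is spread over the window, and CTCF peaks at 3.26% in other distal windows.

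By position, members were a little more often inside genes. Introns held 984 members, or 56.0% (53.7% to 58.3%), against 52.3% of other distal windows, intergenic DNA 674 (38.4%, against 43.2%) and exons 99 (5.63%, against 4.57%). Coding exons were overlapped by 78 members (4.44%) and 2.71% of other distal windows. The median distance to a start site was 11.7 kb, against 13.52 kb, and 44.5% lay within 10 kb, against 40.6%. Windows without a difference had a like median distance of 11.6 kb.

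The members were spread over the genome. On the autosomes, from 0.866% (chromosome 1) to 1.56% (chromosome 8) of distal windows were members. Chromosome X held 1 member among 2528 distal windows, in an intron of Hdac8, a histone deacetylase gene, with levels of 5.63 and 7.13. The median difference of distal windows was -0.76 on chromosome X and -0.49 on the autosomes, and 225 distal windows on it reached both levels. Only 50 members (2.85%) had another within 10 kb, and 263 (14.97%) within 50 kb.

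Most other windows near members did not share their difference. The 3399 other distal windows with centres within 10 kb of a member's had a median difference of -0.39. All distal windows had -0.50, and those within 10 kb of windows without a difference had -0.63. Of the 3399, 8.18% were higher by at least 1, against 9.15% of all distal windows. The 574 promoter windows within 10 kb had a median of -0.18, and all promoter windows had -0.22. Within 1 kb the median of the 183 other distal windows was 0.05, with 16.4% higher by at least 1.

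The group with the most members within 50 kb of another lay at Lmx1b, a LIM homeodomain factor gene of limb patterning, where 4 members fell within 81.2 kb on chromosome 2. The first, at chr2:33513811-33514011, had levels of 5.64 and 7.01. The second, at chr2:33555718-33555918, had levels of 6.59 and 7.84. The others, both in introns of Lmx1b, had levels of 6.79 and 8.09, and of 7.08 and 8.17. The next groups had 3 members each, over shorter spans of 42.05 kb and 18.6 kb. The first of them lay in Gab2, a signalling adaptor gene, and Kctd21, with differences of 1.28, 1.58 and 1.14. The last of these is the 1 member wider than the standard window, and its AAG count of 16 is over a longer sequence. The other lay in Nt5c1a and near Heyl, a Notch target gene, with differences of 1.43, 1.45 and 1.11.

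The members were nearest to start sites of 1524 protein-coding genes, of which 28 had 3 or more. Mki67, the gene of the proliferation marker Ki-67, had 4 members among 52 distal windows, with differences of 1.07 to 1.88. Nfatc2, a calcium-regulated factor gene, had 4 of 39, and Lmx1b 4 of 30.

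Gene lists were read against the 1.18% of all distal windows that are members. Within 100 kb of a start site of the 24 hepatocyte transcription factor genes lay 11 members among 540 distal windows (2.04%), 1 at each of 11 genes. Over those 540 windows the median difference was -0.38, with 58 higher and 111 lower by at least 1. Over all distal windows it was -0.50, with 9.15% higher and 27.0% lower. One member covered coding sequence of Foxa1, a pioneer factor gene, with levels of 6.26 and 7.37. No list of the factors in 4in1 was used here, and reads from a transgene copy, were there one, could not be told apart from genomic reads. The member near Foxa3 went from 6.92 to 8.34.

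Genes of hepatocyte products had 8 members of 480 (1.67%), all more than 25 kb from their start sites. A window within 100 kb of Ambp, in an intron of the neighbouring Col27a1, went from 5.78 to 7.61. One near Apoe, an apolipoprotein gene, lay in Nectin2 and went from 5.97 to 7.43. One near Ass1, an enzyme gene of the urea cycle, went from 5.81 to 7.38. The genes of cholangiocytes and liver progenitors had 0 members of 289 distal windows, which allows a share of up to 1.04% (3 counts of the total, for counting error only). Windows around 1 gene are not independent, and no depletion is read from this.

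Fibroblast and mesenchyme genes had 10 members of 568 (1.76%). Over those 568 windows the median difference was -0.64, with 35 higher and 167 lower by at least 1. Snai2, a zinc finger gene of mesenchymal cells, had 2 members among 10 distal windows, whose median was 0.53, the list's only positive median. Its member with the larger difference, at chr16:14804628-14804828, went from 5.68 to 7.15, and it is shown because it is rich in AAG for a member, with 9 copies.

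Member near Snai2: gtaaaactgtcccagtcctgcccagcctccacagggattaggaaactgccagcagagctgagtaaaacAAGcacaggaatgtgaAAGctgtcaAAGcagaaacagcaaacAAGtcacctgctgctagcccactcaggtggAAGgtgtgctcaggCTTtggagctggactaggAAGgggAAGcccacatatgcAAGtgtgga

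Col5a1, a fibrillar collagen gene, had 2 members of 53 and Hic1, a repressor gene, 2 of 32. Muscle genes had 5 of 331 (1.51%), with 2 near Tpm1, a tropomyosin gene. The larger of these went from 6.39 to 8.14. Over the 31 distal windows near Tpm1 the median difference was -1.11, with 2 higher and 18 lower by at least 1. For all 331 windows the median was -0.54, with 20 higher and 106 lower.

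Cell cycle genes had 8 members of 304 within 100 kb (2.63%) and 2 of 94 within 25 kb (2.13%). Ccnd1, the gene of cyclin D1, had 3 of 33. One of these, at chr7:144978733-144978933, went from 5.57 to 7.14 and is shown because it is built of a repeat and holds no AAG.

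Member near Ccnd1: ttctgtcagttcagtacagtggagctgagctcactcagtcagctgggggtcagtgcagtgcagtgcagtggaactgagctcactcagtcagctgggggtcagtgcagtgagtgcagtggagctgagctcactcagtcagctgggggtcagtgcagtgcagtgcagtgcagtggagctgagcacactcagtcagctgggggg

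Cdkn1c, the gene of the cell cycle inhibitor p57, had 2 members, among them the window in Cars given above. Lymphatic endothelium genes, a tissue in which Prox1 is a fate determinant, had 7 of 416 (1.68%). Itga9, an integrin gene of lymphatic valves, and Reln, which encodes a secreted glycoprotein, had 2 each, and Pdpn, the podoplanin gene, had 1 that went from 5.67 to 7.20. Epithelial junction genes had 3 of 264, cardiac genes 2 of 203, neuronal genes 3 of 299 and adipogenic genes 4 of 370. Over all lists, 60 of 4014 distal windows (1.49%) were members, and no list is singled out by these counts. Every list had a negative median difference, from -0.64 to -0.25, and more windows lower than higher by at least 1.

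The labelled cell type was checked at promoters in the GFP arm. All 12 fibroblast genes looked at, among them Col1a1, Pdgfra and Fn1, had a window within 1 kb of a start site, with levels of 7.62 to 9.61. Of the hepatocyte genes, Afp and Apob had one and Alb, Ttr, Apoa1 and Serpina1a had none. Open promoters do not measure expression, and 2 of 3 leukocyte, 3 of 3 endothelial, 2 of 3 epithelial and 3 of 3 neural genes also had a window. Their levels were 8.10 to 8.77, 7.86 to 8.84, 7.54 to 7.60 and 6.90 to 8.87, in that order. Afp and Apob had 7.23 and 8.18. All but the epithelial levels overlapped those of the fibroblast genes, so the levels do not tell the cell types apart.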

How the data were processed

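ATAC-seq libraries of 4 groups with 3 replicates each were made by the authors. Per the study's methods and the submitters' processing notes, reads were trimmed with Trimmomatic 0.38, aligned to mm10 with Bowtie2 2.3.4.3 and filtered with SAMtools 1.10, Picard 2.18.16 and bedtools 2.27.1. The authors report a recalibration of aligned reads meant to allow for the insertion bias of Tn5. Whether such bias remained in the window values was not tested. The peak caller is uncertain, since the sources name more than one. Windows, 201 bases wide save for a few that are wider (1 member), were counted with DiffBind 3.4.11. The authors deposited, per window, log2 mean normalised reads for 4in1_GFP_OE and 4in1_Prox1_OE. These 2 columns were used. The deposited fold changes, p-values and FDR, and 2 lists of windows taken from them, hold the authors' own comparison and were not used. MEF and Prox1_OE were not analysed here.

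No value per library or depth was in the files used, so no test was made and replicates could not be compared. Members and gene lists were chosen with earlier results of these data known. Gene positions were those of the comprehensive GENCODE M21 annotation, and sequence from RefSeq's GRCm38.p6. Distances run from the window's edge. Motifs were searched on both strands, exactly or, for long ones, with 1 mismatch (2 for the paired AGGTCA motif), and were tested on simulated data, as was the distance search. Comparison shares at matched level were weighted over 10 classes of GFP level with 5 of GC content or with the AAG count. Named windows were the 10 largest differences, the 5 highest levels in each arm, 3 on either side of each limit, the 3 groups with the most members within 50 kb of another and, per list, up to 5 genes with the most members within 100 kb. Printed sequences followed from these and from the largest difference per motif among windows not already printed, without chromosome 18. Words of 6 bases were compared by share of windows. The software was Python 3.11.15 with pysam 0.24.0, pandas 2.3.3, matplotlib 3.10.9, scipy 1.17.1 and numpy 2.4.6.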

Additional observations from a re-analysis of the deposited data

How the results depend on the processing

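No paired analysis was possible because only means over each arm's libraries were at hand. Leaving out single replicates and refitting a count model were therefore not run, and precision per window is unknown. The number of members was 476 at a minimum difference of 1.5, 2786 at 0.75 and 943 at a GFP level of at least 6. It was 3744 after subtracting the median of all windows and 3718 at equal totals. With start sites 5 kb away, 41.9% of members were intergenic and the median distance was 17.2 kb. At a minimum difference of 1.5 the median GC content was 51.2%. The share with another member within 10 kb was 1.26% at a difference of 1.5, 1.70% at a GFP level of 6 and 7.35% after subtracting the median, where the median AAG count was 5 in place of 4. Near listed genes, 22 members lay within 25 kb and 37 had the gene as their nearest protein-coding gene, in place of 60. The gap in median difference between few and many AAG, chosen with its alternatives after seeing the data, was 1.75, 1.07 and 0.790 in GC quintiles 1, 4 and 5 and 0.581 in promoter windows. It was 1.87 for 1 or fewer against 12 or more copies, 0.895 for 5 or fewer against 8 or more, and 0.980 in the middle part of the window for 1 or fewer against 5 or more. Members' CTCF share exceeded that of lower windows by 3.35 points, and their CEBP share exceeded that at the same GFP level and AAG count by 1.07 points, while both were below all other distal windows. The causes were not tested. Of 301 values under other settings, 238 stayed within a set limit, 61 moved past it, and 2, the CTCF and CEBP values just given, turned direction. The limit was the interval for shares and medians, 1.5 times for counts and the range over autosomes for the AAG gap. Some settings, such as autosomes only, hardly changed the members, and rare motifs had wide intervals. These counts are therefore no measure of robustness.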

Other observations

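Distal windows that passed every condition but the GFP limit had motif shares of their own. CAGGTG was in 21.2% of these 901 windows, the short NFI motif in 22.0%, TEAD in 12.5% and EBF in 3.33%, against 17.8%, 17.7%, 10.1% and 1.76% of members. EBF factors take part in adipocyte and mesenchymal differentiation. CTCF was in 3.55% of them and AP-1 in 19.8%. These windows had lower GFP levels than any member by construction, and no test was made.

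In promoter windows, AAG was also the triplet whose count had the most negative correlation with the difference between the arms (Pearson r -0.37 over 27533 windows of the same 6 libraries, given as a description). The next was GAA, with -0.28.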
